A study of Mus musculus with 10 samples.

Results

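The Slc25 genes encode the mitochondrial carrier family, membrane proteins that move metabolites across the inner membrane of the mitochondrion. Members were taken by name: every non-control probe whose gene name was Slc25a and a number, apart from 1 gene that the selection rule leaves out. This gave 43 genes, measured by 51 probes, of 31473 genes on the array. Only probes with signal well above background on the 2 arrays of some time point, in 1 and the same dye, were used; 41 of the 43 genes had such a probe, of 24007 genes tested in all. The ornithine carrier Slc25a2 and the ADP/ATP carrier Slc25a31 did not pass and have no result here.

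Each carrier is built from repeats of a short module that together form a gated pore, and most exchange a substrate of the mitochondrial matrix for one of the cytosol. In hepatocytes these exchanges link the matrix steps of the urea cycle, fatty acid oxidation, gluconeogenesis, haem synthesis and oxidative phosphorylation to the rest of the cell. Carriers are made in the cytosol and inserted into the inner membrane by the TIM22 complex. Acetaminophen overdose injures hepatocytes through a reactive metabolite that depletes glutathione and binds mitochondrial proteins.

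The data were 10 Agilent 2-colour arrays of liver RNA from female C57BL/6 mice aged 8 weeks. All mice were fasted for 24 h and then injected intraperitoneally once, either with acetaminophen at 350 mg/kg in phosphate-buffered saline (treated) or with the saline alone (control), and livers were taken at 3, 8, 24, 48 or 72 h. Each array set a treated mouse (Cy5) against a control mouse (Cy3) of the same time point, with 2 arrays per time point and separately numbered mice. Each value is the log2 ratio of the treated over the control liver, given per array with the replicate 1 or replicate 2 array first and the replicate 3 array second, then as the mean ± SE of the fit (n = 2 arrays). The SE shares 5 residual degrees of freedom over all arrays. A gene is called where limma gave a Benjamini-Hochberg adjusted p under 0.05 over all genes tested. Treated RNA carried Cy5 on all arrays, and at a single time point a probe's bias towards 1 dye and the treatment cannot be told apart.

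Signal differed between arrays. The 90th percentile of Cy5 intensity was 356, 480 and 389 on replicate 1 of 3, 24 and 72 h and between 1050 and 1980 on the other arrays. On those 3 arrays 44.7% to 51% of probes were well above background in Cy5, against 62% to 75.9% on the others. On replicate 1 of 72 h the log2 ratios of the 41 members had an SD of 0.05, against 0.28 on the other 72 h array and 0.38 to 0.83 on the remaining arrays. With the scanner software's own ratio that array's SD was 0.60. Of the 41 members, 38 were well above background in the control channel of every array and 29 in the treated channel of every array, and no member probe was saturated. All 8 hepatocyte markers of the labelled tissue were kept, but most markers of other cell types were kept too. These were all 6 endothelial, all 6 stellate and all 6 T and B cell markers. Kept as well were 5 of 6 cholangiocyte markers (not Epcam) and 4 of 6 muscle and heart markers (not Ckm and Actn2).

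In the family, as over all genes tested, the share of calls was largest at 48 h. At 3 h 5 of 41 members were called, 3 higher and 2 lower (12.2%, against 7.44% of all genes tested, 3.36% higher and 4.08% lower). At 8 h 5 were called, 1 higher and 4 lower (12.2%, against 12.9% of all genes, 5.33% higher and 7.57% lower). At 24 h 4 were called, all lower (9.76%, against 10.9% of all genes, 3.79% higher and 7.09% lower). At 48 h 17 were called, 10 higher and 7 lower (41.5%, against 31.4% of all genes, 17.9% higher and 13.5% lower). At 72 h no member was called (0 of 41, and 0 of all genes in limma); at an unadjusted p under 0.05 the counts were 0 members and 766 genes (3.19%), and no member was called at 72 h with the software's own ratio or the authors' deposited table. The members' shares at 8 and 24 h were thus near or below those of all genes.

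The median log2 ratio of the members was -0.05, 0.05, -0.25, 0.04 and -0.02 from 3 to 72 h, against -0.01 to 0.00 for all genes. In all, 20 members were called at 1 or more time points and 21 at none, and the largest mean among those 21 was 0.82 in size. Only Slc25a1 and Slc25a42 were called in both directions at different times, and both signs of Slc25a42 turned with median centring, described below. Of the 41 members, 33, 35, 31, 34 and 26 had the same sign on both arrays from 3 to 72 h. All 31 calls did, which calling on the mean of 2 arrays favours, so this adds no support. Of these calls, 5 held under every alternative run (22 for Slc25a24 and 23 for the others): Slc25a1 at 24 h and Slc25a4, Slc25a12, Slc25a24 and Slc25a39 at 48 h. Slc25a24 did not pass the stricter filter, as its probe was well above background in the treated channel of only 8 of 10 arrays.

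**Figure D1:**
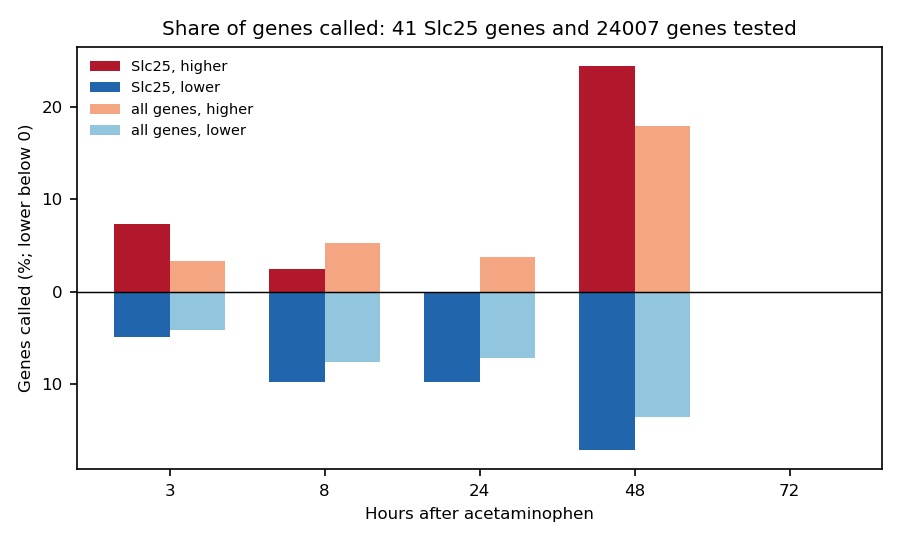
Share of genes called higher (above 0) and lower (below 0) at each time point after acetaminophen, in percent, for the 41 Slc25 genes (dark bars) and all 24007 genes tested (pale bars). The Slc25 bars and the bars of all genes are both tallest at 48 h, where 10 members were called higher and 7 lower. No member was called at 72 h.

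The counts moved with the normalization. Shares of all genes called under the alternatives are not given here, so these counts are not read as results about the family. With each array centred on its median log ratio in place of the intensity-dependent loess curve, the members called higher and lower were 0 and 14 at 3 h, 0 and 3 at 8 h, 0 and 2 at 24 h and 7 and 0 at 48 h. The median of all genes then stood at -0.24, -0.18, -0.07, 0.08 and 0.01, and that of the members at -0.57, -0.29, -0.50, 0.24 and -0.02. Without the 3 arrays of dim Cy5 signal, an alternative chosen after the intensities were seen, 0, 2, 1 and 13 members were called at 3, 8, 24 and 48 h. With the slide as a block 1, 4, 4 and 9 were called, and 18 of the 31 calls held. Leaving out 1 array at a time, the count at 3 h ranged from 0 (without replicate 1 of 3 h; 1 without replicate 3 of 3 h) to 8 (without either 48 h array), at 8 h from 1 (without replicate 2 of 8 h) to 11 (without either 48 h array), at 24 h from 3 to 8 (without replicate 1 of 24 h) and at 48 h from 9 (without replicate 3 of 48 h) to 18. Where 1 array of a time point was left out, a member's value is that of the other array, as given below.

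**Figure D2:**
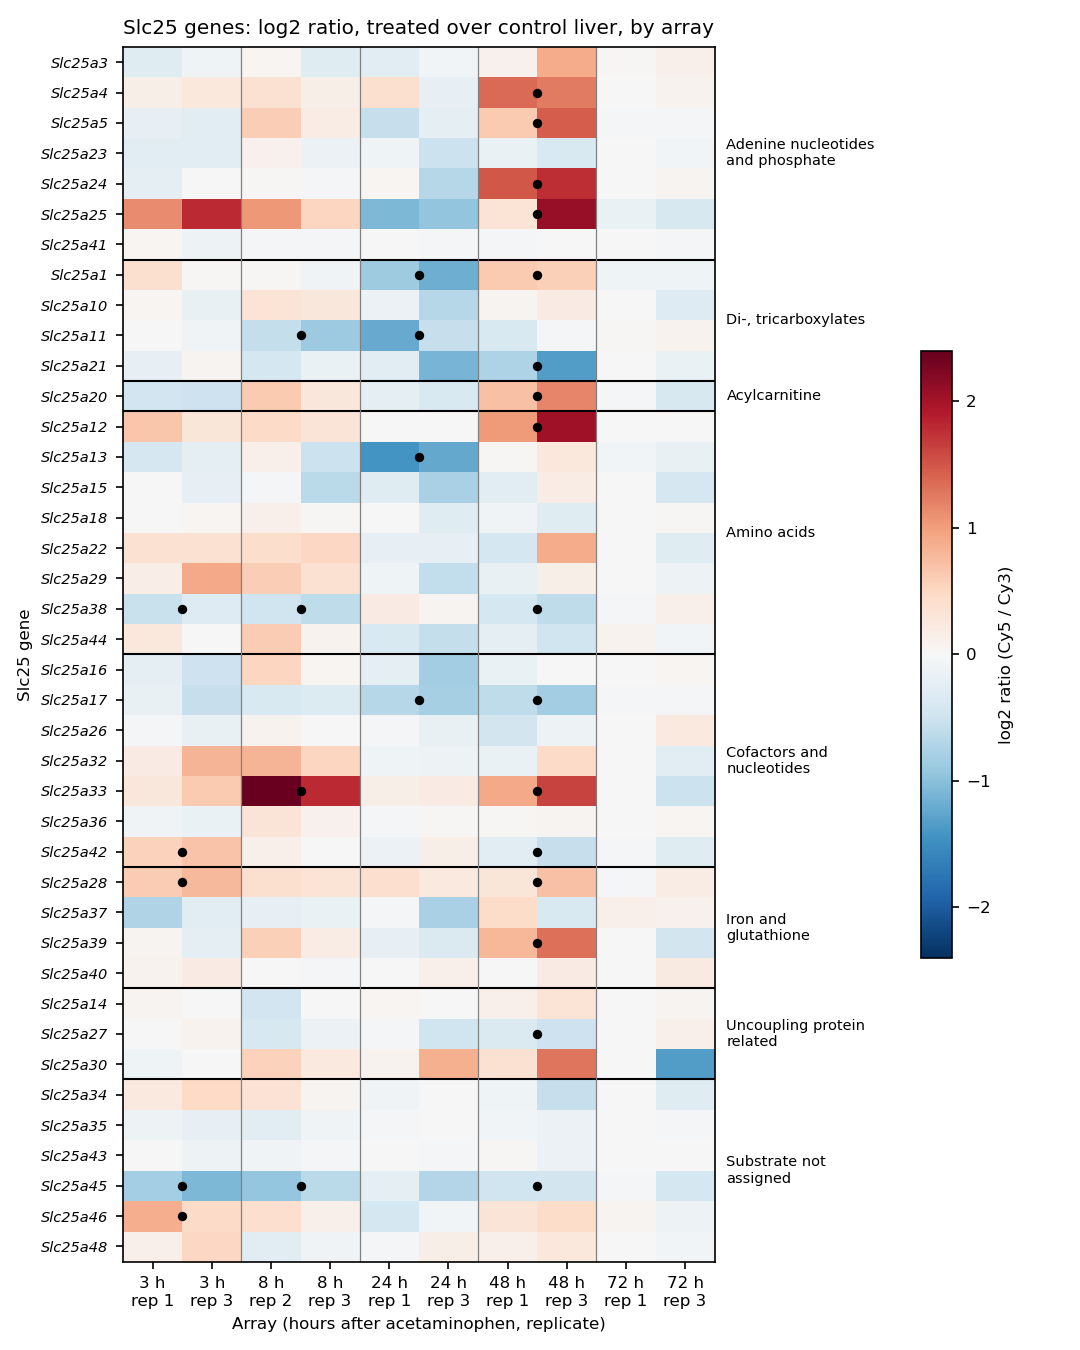
Log2 ratio of treated over control for 40 of the 41 Slc25 genes (rows, by substrate) on each of the 10 arrays (columns, by time and replicate), with red higher and blue lower in the treated liver. A black dot marks a gene called at that time point; 16 dots stand at 48 h, and replicate 1 of 72 h is nearly white throughout.

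The clearest rises at 48 h, with the rise of Slc25a33 at 8 h, are introduced by the DNA just upstream of the genes. The upstream windows of 4 of these genes are shown because their values carry the account that follows; they come from RefSeq (GRCm38.p6), run 5′ to 3′ on the gene's strand up to the listed start site or the edge of the gene, and have capitals where a searched motif matches. Slc25a4 lies on the minus strand at chr8:46211063-46211312, Slc25a12 on the minus strand at chr2:71367782-71368005, Slc25a24 on the plus strand at chr3:109122899-109123148 and Slc25a33 on the minus strand at chr4:149774268-149774517.
Slc25a4: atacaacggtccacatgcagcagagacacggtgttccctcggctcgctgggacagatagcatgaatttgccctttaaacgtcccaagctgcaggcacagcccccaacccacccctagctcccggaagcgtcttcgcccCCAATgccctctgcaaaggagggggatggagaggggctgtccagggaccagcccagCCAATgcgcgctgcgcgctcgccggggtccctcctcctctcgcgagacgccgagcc
Slc25a12: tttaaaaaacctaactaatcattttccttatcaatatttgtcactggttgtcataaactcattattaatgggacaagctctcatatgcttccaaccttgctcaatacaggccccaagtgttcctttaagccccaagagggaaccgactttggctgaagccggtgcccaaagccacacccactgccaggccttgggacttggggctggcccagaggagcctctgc
Slc25a24: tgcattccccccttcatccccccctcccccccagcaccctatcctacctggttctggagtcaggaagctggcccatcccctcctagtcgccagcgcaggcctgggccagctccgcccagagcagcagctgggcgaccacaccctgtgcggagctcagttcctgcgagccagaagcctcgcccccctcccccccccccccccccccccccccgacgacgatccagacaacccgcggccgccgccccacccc
Slc25a33: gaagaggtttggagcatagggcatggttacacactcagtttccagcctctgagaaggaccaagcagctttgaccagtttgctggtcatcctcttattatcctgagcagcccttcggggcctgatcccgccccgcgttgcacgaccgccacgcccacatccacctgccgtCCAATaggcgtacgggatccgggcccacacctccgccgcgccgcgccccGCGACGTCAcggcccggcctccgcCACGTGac
Searched on both strands were the E-box CACGTG, the cAMP response element TGACGTCA, the amino acid response element TGATGCAA, the antioxidant response element core TGACNNNGC, the CCAAT box CCAAT and the nuclear receptor site AGGTCA. The capitals mark 2 CCAAT boxes upstream of Slc25a4 and, upstream of Slc25a33, 1 CCAAT box, 1 antioxidant response element core read on the opposite strand and 1 E-box. None of the 6 motifs was found in the windows printed for Slc25a12 and Slc25a24.

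Over the 250 bases before each start, 32 of the 41 members had a window. A member counted as a match where any of its windows matched, whereas the shares of all windows count each window singly. The shares are thus unlike measures, and a member with several start sites has more windows in which to match. The E-box was found in 6 of the 32 (18.8%, against 6.02% of all 32851 windows), the antioxidant core in 7 (21.9%, against 10.2%) and the CCAAT box in 16 (50%, against 33.8%). The cAMP response element was found in 2 (6.25%, against 1.55%), the nuclear receptor site in 3 (9.38%, against 14%) and the amino acid response element in none (0.791% of all windows). Among the 10 members called higher at 48 h, 2 held an E-box, 3 the antioxidant core and 5 a CCAAT box. Among the 5 members called lower at 48 h that had a window, these counts were 0, 1 and 3. A match is a run of letters and was not tested as a binding site.

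Of the 7 kept carriers of adenine nucleotides and phosphate, 4 were called higher at 48 h and none lower. Of all genes tested, 17.9% were higher and 13.5% lower. The group median was 1.04, against -0.01 for all genes. The substrate groups were chosen with earlier results of these data known. No carrier of this group was called at another time point. Slc25a4 and Slc25a5 exchange matrix ATP for cytosolic ADP: Slc25a4 is the form of heart and muscle, and Slc25a5 is the form typical of dividing cells. Slc25a4, read by a probe at chr8:47292828-47292887 (mm9, minus strand), had log2 ratios of 1.36 and 1.25 at 48 h, a mean of 1.31 ± 0.13 (2.48-fold, adjusted p = 0.000368). On the other 8 arrays it lay between -0.19 and 0.39. Slc25a5 had 0.63 and 1.45 at 48 h, a mean of 1.04 ± 0.18 (adjusted p = 0.00411), and at most 0.58 on any other array. Whether either probe also binds RNA of the other gene was not analysed here.

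Muscle and heart markers were read beside the rise of the muscle form. At 48 h none of the 4 kept markers was called higher and 1 was lower, and their summed level stood at -0.26 to -0.05. Only 2 markers of this list were well above background in the control channel of every array, and Ckm and Actn2 were not kept. A part of muscle RNA in the rise was not tested. Slc25a3, which brings the phosphate for ATP synthesis into the matrix, had 0.11 and 0.89 at 48 h and was not called (0.50 ± 0.17, adjusted p = 0.0585). Its dimmer second probe read -0.18 at 48 h, opposite in sign to the first.

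Slc25a23, Slc25a24 and Slc25a25 are calcium-regulated carriers that exchange ATP-Mg for phosphate and so set the size of the matrix nucleotide pool. These 3 paralogs had separate courses. Slc25a24 (probe at chr3:108971266-108971325, mm9, plus strand) stayed between -0.68 and 0.07 on the 8 arrays of the other time points and read 1.48 and 1.77 at 48 h, a mean of 1.63 ± 0.16 (3.09-fold, adjusted p = 0.000355). Its value was 2.97 with the software's own ratio. Slc25a23 moved little, with means of -0.31 to -0.02 at the 5 time points and no call.

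Slc25a25 swung most widely of the 3. Its arrays read 1.13 and 1.79 at 3 h, 1.04 and 0.51 at 8 h, -1.09 and -0.96 at 24 h, 0.32 and 2.09 at 48 h and -0.16 and -0.39 at 72 h. Only the 48 h mean of 1.20 ± 0.36 was called (adjusted p = 0.0371), although its 2 arrays lay far apart, and the 3 h mean of 1.46 ± 0.36 was not (adjusted p = 0.051). The 48 h call ended under 16 of 23 alternatives, among them leaving out any array except replicate 1 of 48 h, with an adjusted p of up to 0.567. A second Slc25a25 probe gave 1.15, 0.84, -1.12, 0.91 and -0.12 from 3 to 72 h. The difference of Slc25a25 between 24 and 48 h was called (2.22 ± 0.51, adjusted p = 0.0327). Its mean log2 level then went from 11.71 to 9.81 in control livers and from 10.69 to 11.02 in treated livers.

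Slc25a41, a related carrier, was well above background in the treated channel of only 4 of 10 arrays and was not called. Of 3 kept genes of mitochondrial calcium entry, the calcium uptake regulator Micu2 was called at 48 h (0.34 ± 0.10, higher) and none at another time. At 48 h 31.4% of all genes were called. The call of Slc25a5 at 48 h was lost with median centring (1.62, adjusted p = 0.0701) and with the slide as a block (0.86, adjusted p = 0.0524).

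Hepatocyte markers moved at the same time as these carriers. At 48 h 4 of 8 hepatocyte markers were lower, with a summed level of -1.27 to -0.45 on the 2 arrays, 3 of 8 macrophage markers were higher (1.01 to 1.87) and 3 of 5 kept neutrophil markers were higher and 1 lower (2.12 to 2.16). Of 5 kept cholangiocyte markers 2 were higher (0.39 to 1.22), of 6 endothelial markers 2 were higher (-0.29 to -0.24), and of 6 stellate markers 1 was higher and 1 lower (-0.59 to 0.84). For all genes tested the shares at 48 h were 17.9% higher and 13.5% lower. The part of these cell types in the 48 h values of the carriers was not tested. In bulk liver RNA, fewer cells of a type and less RNA per cell cannot be told apart.

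Of the 4 carriers of di- and tricarboxylates, Slc25a1 and Slc25a11 were called lower at 24 h (7.09% of all genes were), and all 4 had negative values on both arrays. Slc25a1 exports citrate for fatty acid and sterol synthesis. Its arrays read -0.86 and -1.18 at 24 h, a mean of -1.02 ± 0.11 (2.02-fold lower, adjusted p = 0.000847), and 0.62 and 0.57 at 48 h, a mean of 0.59 ± 0.11 (1.51-fold, adjusted p = 0.00443). The 24 h arrays were the lowest and the 48 h arrays the highest of the 10, at time points picked by these same values. The 24 h fall was -1.56 with median centring. The 48 h call was lost with the software's own ratio and the authors' deposited table (0.54, adjusted p = 0.0772) and was 1.08 with median centring.

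Of 6 enzymes that make or use citrate, 5 were called lower at 24 h, with a list median of -1.08; citrate synthase, Cs, was not called (-0.06 ± 0.11). The largest falls were those of the citrate-cleaving enzyme Acly (-1.89 ± 0.24), the fatty acid synthase Fasn (-1.65 ± 0.22) and the acetyl-CoA carboxylase Acaca (-1.27 ± 0.13). At 48 h, when Slc25a1 was higher, 3 of the 6 were lower and none was higher. Fasn then stood at -1.36 ± 0.22. For all genes tested the shares were 7.09% lower at 24 h, and 13.5% lower and 17.9% higher at 48 h.

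Slc25a11 exchanges oxoglutarate for malate and is part of the malate-aspartate shuttle. It read -0.57 and -0.86 at 8 h, a mean of -0.72 ± 0.15 (adjusted p = 0.0227), and -1.22 and -0.56 at 24 h, a mean of -0.89 ± 0.15 (adjusted p = 0.00874). Both calls ended with median centring (-1.43 and -1.55) and without the 3 dim arrays; the 8 h call ended without either 8 h array and the 24 h call without replicate 1 of 24 h.

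Slc25a21, a carrier of oxoadipate in lysine and tryptophan breakdown, read -0.25 and -1.11 at 24 h (not called) and -0.74 and -1.33 at 48 h, a mean of -1.04 ± 0.21 (adjusted p = 0.00773). Its 48 h value was -1.88 with the software's own ratio, and the call ended with median centring and without replicate 3 of 48 h. Slc25a10, the dicarboxylate carrier, was not called at any time point, with means of -0.41 to 0.30.

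Slc25a20 carries acylcarnitines into the matrix for fatty acid oxidation. It read 0.71 and 1.17 at 48 h, a mean of 0.94 ± 0.14 (adjusted p = 0.00187), and at most 0.64 elsewhere (at 8 h). At 3 h it read -0.47 and -0.50 and was not called (adjusted p = 0.0798). With the slide as a block the 48 h call ended. Of the 6 genes of the carnitine shuttle, the carnitine importer Slc22a5 was higher at 8 and 48 h (1.02 ± 0.20 and 0.68 ± 0.20). The carnitine synthesis enzyme Bbox1 was higher at 8 h (0.62 ± 0.15) and lower at 24 and 48 h (-1.81 ± 0.15 and -0.64 ± 0.15).

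Among 8 kept amino acid carriers, 1 was called at 3, 8 and 24 h each (12.5%) and 2 at 48 h (25%). Of all genes tested, 7.44%, 12.9%, 10.9% and 31.4% were called at these times. From 8 to 48 h the group's shares were thus near or below those of all genes. Slc25a12 and Slc25a13 (aralar and citrin) export aspartate from the matrix in exchange for glutamate, and Slc25a13 is the form characteristic of liver. Slc25a12 (probe at chr2:71112979-71113038, mm9, minus strand) read 1.02 and 2.03 at 48 h, a mean of 1.52 ± 0.20 (2.87-fold, adjusted p = 0.00124), and 0.01 and -0.01 at 24 h. Slc25a13 (probe at chr6:5991482-5991541, mm9, minus strand) read -1.43 and -1.23 at 24 h, a mean of -1.33 ± 0.15 (2.52-fold lower, adjusted p = 0.00102), and 0.02 and 0.26 at 48 h. Neither gene's called arrays overlapped its own other arrays, but the time points were picked by these same values, so this adds no support. The difference between the paralogs was not tested.

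From 24 to 48 h both rose, Slc25a12 by 1.53 ± 0.29 and Slc25a13 by 1.47 ± 0.21 (adjusted p = 0.0175 and 0.00701), from different starting values. Slc25a12 was 2.31 at 48 h with the software's own ratio. The Slc25a13 call ended with median centring (-1.92, adjusted p = 0.0745) and without the 3 dim arrays.

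All 6 urea cycle genes were lower at 24 h, with a list median of -2.24, led by Otc (-2.87 ± 0.18), Cps1 (-2.44 ± 0.22) and Asl (-2.29 ± 0.15), and 4 were lower at 48 h, with Otc at -3.99 ± 0.18. Slc25a15, which brings ornithine into the matrix for that cycle, was not called, although its arrays at 24 h read -0.29 and -0.78 (-0.54 ± 0.19, adjusted p = 0.143). Of the 4 malate-aspartate shuttle enzymes, 3 were lower at 24 h: Got1 (-2.70 ± 0.34), Mdh1 (-2.03 ± 0.11) and Got2 (-0.67 ± 0.15). Got1 had been higher at 3 h (1.83 ± 0.34). At 24 h 2 of 8 hepatocyte markers were lower, with a summed level of -0.72 to 0.09, 2 of 5 kept neutrophil markers were higher (1.28 to 3.21) and 1 of 8 macrophage markers was higher (-0.44 to 1.40). For all genes tested the shares were 7.09% lower and 3.79% higher at 24 h, and 13.5% lower at 48 h. The part of these cell types in these values was not tested.

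Slc25a38 imports glycine for the first step of haem synthesis. It read -0.53 and -0.30 at 3 h, -0.49 and -0.61 at 8 h and -0.41 and -0.61 at 48 h, and was called lower at all 3 (-0.42 ± 0.09, -0.55 ± 0.09 and -0.51 ± 0.09, adjusted p = 0.0341, 0.00851 and 0.00428). At 24 h it stood above 0, at 0.19 and 0.06. The changes from 8 to 24 h (0.68 ± 0.13) and from 24 to 48 h (-0.64 ± 0.13) were both called. Median centring gave -1.47, -1.24 and -0.03 at 3, 8 and 48 h. The 3 h call ended under 10 of 23 alternatives, including leaving out either 3 h or either 72 h array, the 8 h call under 7, including leaving out either 8 h array, and the 48 h call under 3, including leaving out replicate 3 of 48 h.

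The haem synthesis enzymes also included many lower genes, 3, 4, 5 and 3 of 9 at 3, 8, 24 and 48 h. For all genes tested the shares called lower were 4.08%, 7.57%, 7.09% and 13.5% at these times. Alas1, which uses the imported glycine, fell at 3 h (-1.70 ± 0.26) and 24 h (-1.24 ± 0.26). Alad, the next enzyme, was lowest at 24 h (-1.30 ± 0.13), a time at which Slc25a38 was not lower. No erythroid marker was called at any time point among the 5 of 9 that were kept, but their summed level ranged from -2.52 to 2.54 over the arrays.

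The remaining amino acid carriers were not called at any time point. Slc25a18 and Slc25a22, the glutamate carriers, had means of -0.19 to 0.08 and of -0.19 to 0.46. For Slc25a22 the arrays of 48 h disagreed in sign, at -0.42 and 0.90. Slc25a29, a carrier of basic amino acids, ranged from -0.35 to 0.54. Slc25a44, a carrier of branched-chain amino acids, ranged from -0.47 to 0.35, and its change from 8 to 24 h was called (-0.82 ± 0.19, adjusted p = 0.0493). Its second, dimmer probe read -0.41 at 8 h where the first read 0.35.

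**Figure D3:**
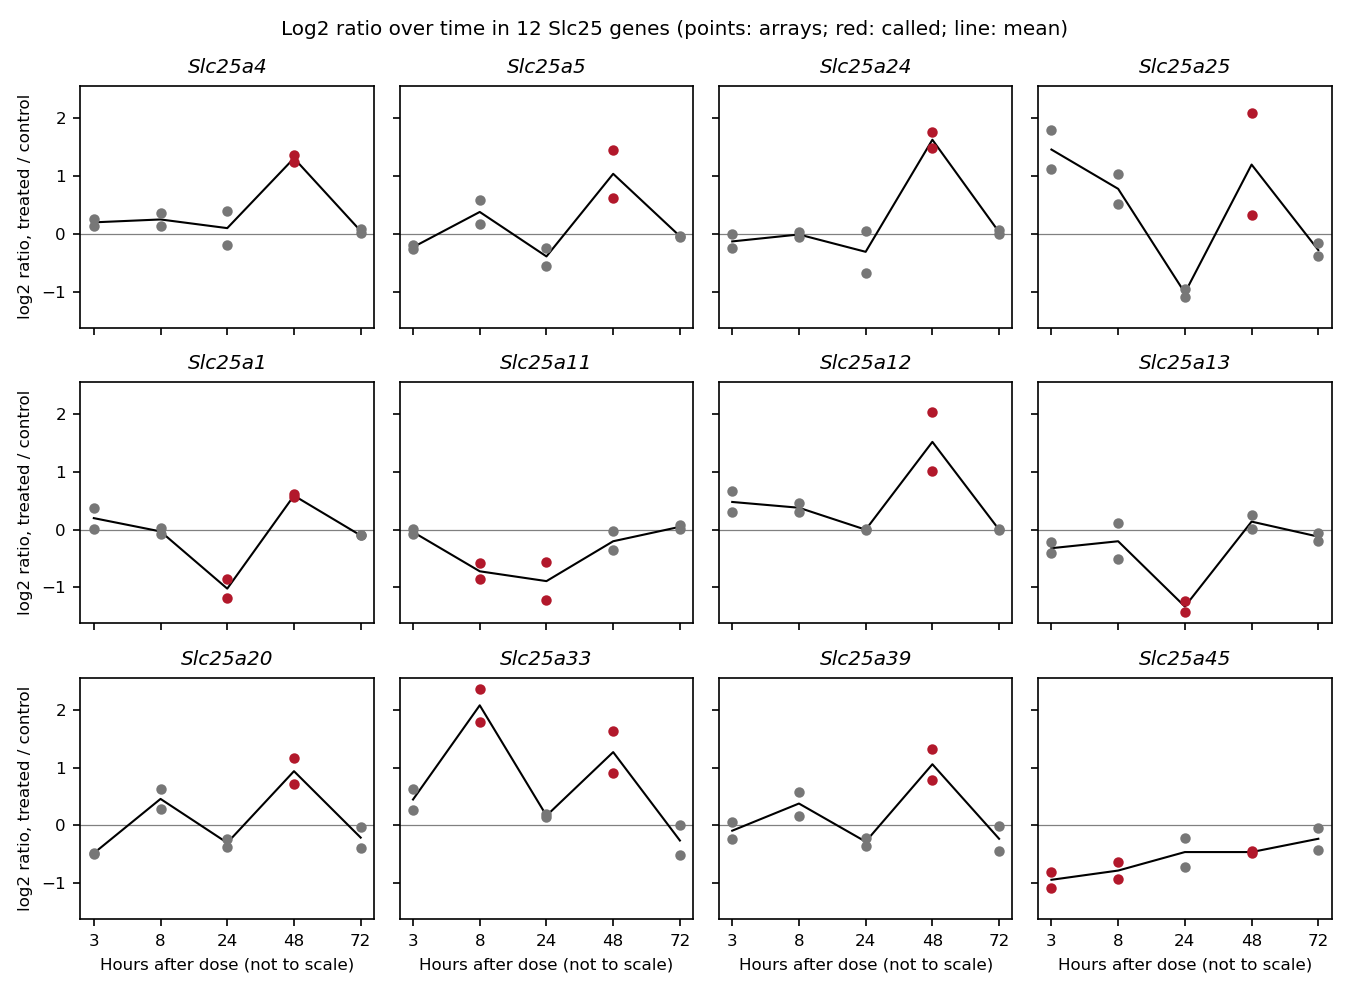
Log2 ratio of treated over control in 12 Slc25 genes against time after acetaminophen (equal spacing, not to scale), with 1 point per array, red where the gene was called at that time point and grey elsewhere, and a line through the means. The line rises from 24 to 48 h in 11 of the 12 genes, and Slc25a33 has its highest points at 8 h. The 12 genes are a selection, most of them called at 48 h, so that count is no result about the family.

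Slc25a33 is a carrier of pyrimidine nucleotides needed for mitochondrial DNA and RNA synthesis. Its arrays read 0.26 and 0.63 at 3 h, 2.37 and 1.79 at 8 h, 0.14 and 0.20 at 24 h, 0.91 and 1.63 at 48 h and 0.00 and -0.51 at 72 h. It was called at 8 h (2.08 ± 0.21, 4.23-fold, adjusted p = 0.00137) and at 48 h (1.27 ± 0.21, 2.41-fold, adjusted p = 0.00309), with a called fall between 8 and 24 h (-1.91 ± 0.30). Its probe lies at chr4:149118713-149118772 (mm9, minus strand), and a second, dimmer probe read 1.38 at 8 h and 0.64 at 48 h. The 8 h value was 2.36 with the software's own ratio. The 8 h call was lost with median centring (1.46, adjusted p = 0.0524), and the 48 h call with the slide as a block and without replicate 3 of 48 h. Its paralog Slc25a36 read -0.15 to 0.31 and was not called, but was well above background in the treated channel of only 7 of 10 arrays.

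Slc25a17, the peroxisomal carrier of CoA and related cofactors, read -0.68 and -0.80 at 24 h and -0.60 and -0.84 at 48 h, with means of -0.74 ± 0.10 and -0.72 ± 0.10 (adjusted p = 0.0029 and 0.00155). With median centring it was -1.24 at 24 h, and the 48 h call ended (-0.24). The 24 h call ended without replicate 3 of 24 h and without the 3 dim arrays. Slc25a17 rose again from 48 to 72 h (by 0.69 ± 0.14, adjusted p = 0.0165).

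Slc25a42, which brings coenzyme A into the matrix, changed direction. It read 0.54 and 0.68 at 3 h (0.61 ± 0.11, adjusted p = 0.0174) and -0.27 and -0.56 at 48 h (-0.41 ± 0.11, adjusted p = 0.0236), but both signs turned with median centring (-0.52 and 0.23). The software's own ratio gave -0.64 at 48 h. The call at 3 h was lost, too, under the software's own ratio (0.60, adjusted p = 0.0919), with the slide as a block and without either 3 h array, and the 48 h call with an offset of 0 and without replicate 3 of 48 h. Its relative Slc25a16 was not called, with means of -0.53 to 0.28.

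Slc25a26, the S-adenosylmethionine carrier, and Slc25a32, which carries folate or FAD, were not called either. Slc25a32 came closest at 8 h, where its arrays read 0.82 and 0.51 (0.67 ± 0.18, adjusted p = 0.0526). The 2 probes of Slc25a26 differed in sign at 48 h, at -0.28 and 0.37.

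Of the 4 iron and glutathione carriers, Slc25a28 was called at 3 and 48 h and Slc25a39 at 48 h. Slc25a39 is needed for the import of glutathione into mitochondria. It read 0.79 and 1.33 at 48 h, a mean of 1.06 ± 0.17 (adjusted p = 0.0025), and at most 0.58 elsewhere (at 8 h). Its paralog Slc25a40 read -0.02 to 0.21 and was not called, but its signal was dim, well above background in the treated channel of 7 of 10 arrays. The difference between these paralogs was not tested. Of 5 glutathione genes, 3, 2 and 4 were higher at 8, 24 and 48 h (5.33%, 3.79% and 17.9% of all genes). They were led by the synthesis subunit Gclc (3.31 ± 0.27 at 8 h and 1.59 ± 0.27 at 48 h) and the reductase Gsr (1.42 ± 0.12 at 48 h). At 8 h, when Gclc stood highest, Slc25a39 was not called (0.38 ± 0.17, adjusted p = 0.204).

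Slc25a28 and Slc25a37 are the mitoferrins, which bring iron to the matrix, and Slc25a37 is the form of developing red cells. Slc25a28 was positive on all 8 arrays from 3 to 48 h, with 0.60 and 0.78 at 3 h and 0.29 and 0.71 at 48 h, and was called at both (0.69 ± 0.11 and 0.50 ± 0.11, adjusted p = 0.012 and 0.0115). The 3 h sign turned with median centring (-0.27), which gave 0.95 at 48 h with no call. The 3 h call also ended with the slide as a block and without either 3 h array. The 48 h call ended under 6 of 23 alternatives, including the software's own ratio (0.46, adjusted p = 0.0979) and leaving out replicate 3 of 48 h. Slc25a37 was not called, with arrays from -0.78 to 0.45.

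Among the carriers related to the uncoupling proteins, which dissipate the proton gradient, 1 of 3 was called, at 48 h (31.4% of all genes were). Slc25a27 read -0.34 and -0.50 at 48 h (-0.42 ± 0.11, adjusted p = 0.026), a call that ended under 6 of 22 alternatives, including without either 48 h array, and was -1.27 with the software's own ratio. Slc25a30 had the widest spread of the uncalled members, at 0.36 and 1.29 at 48 h (0.82 ± 0.33, adjusted p = 0.101) and 0.00 and -1.35 at 72 h. Slc25a14 was not called.

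Family genes that carry other names behaved as follows, with 6 of 7 kept. The uncoupling protein genes Ucp2 and Ucp3 were higher at 48 h (0.57 ± 0.12 and 0.50 ± 0.11). Mtch2, an outer membrane relative, was lower at 3, 8, 24 and 48 h, furthest at 24 h (-1.09 ± 0.08). Slc25a51, the NAD carrier, listed under an older name on the array, was higher at 8 h (1.79 and 1.16, a mean of 1.47 ± 0.20).

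Of the 6 members with no substrate assigned here, Slc25a45 had the most calls. It was negative on all 10 arrays, with -0.81 and -1.08 at 3 h, -0.92 and -0.64 at 8 h and -0.47 and -0.45 at 48 h (means -0.94 ± 0.14, -0.78 ± 0.14 and -0.46 ± 0.14, adjusted p = 0.00995, 0.0131 and 0.044). Median centring gave -1.78, -1.29 and -0.20. The 3 h call ended without either 3 h array, the 8 h call without replicate 2 of 8 h, and the 48 h call under 9 alternatives, including without either array of 3, 8 or 48 h. At 24 and 72 h it was not called (-0.46 ± 0.14 and -0.23 ± 0.14, adjusted p = 0.0957 and 1). Slc25a45 did not pass the F test between time points, and its fall and a constant dye bias cannot be told apart.

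Slc25a46, an outer membrane protein with a role in mitochondrial shape, read 0.88 and 0.46 at 3 h (0.67 ± 0.13, adjusted p = 0.0242), a call whose sign turned with median centring (-0.39) and that ended with the software's own ratio (0.69, adjusted p = 0.094), with the slide as a block and without replicate 1 of 3 h. Slc25a34, Slc25a35, Slc25a43 and Slc25a48 were not called, with means between -0.32 and 0.35. Slc25a43 was not well above background in the treated channel of any array.

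The import route of the carriers was examined beside them. Of 9 kept genes of the TOM70 and TIM22 route, 5 were higher and none lower at 48 h (17.9% and 13.5% of all genes). The list median was 0.47. The largest rises were those of the channel-forming Timm22 (1.04 and 1.33, a mean of 1.18 ± 0.10), Timm13 (0.86 ± 0.17) and Timm10b (0.64 ± 0.09). Timm10b had been lower at 3 and 8 h (-0.67 ± 0.09 and -0.85 ± 0.09) and Timm22 at 8 h (-0.36 ± 0.10). Of 5 pyruvate carrier and outer membrane channel genes, Vdac3 and Vdac2 were higher at 48 h (0.59 ± 0.09 and 0.44 ± 0.11) and Vdac1 was lower (-0.58 ± 0.11). At 8 h Vdac3 and Vdac2 had been lower (-0.40 ± 0.09 and -0.43 ± 0.11), and 1 of the 5 was higher. Vdac1 was lower at 24 h too (-0.66 ± 0.11).

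A constant dye effect cancels in differences between time points. In the F test between the 5 time points 16 of the 41 members were called, against 23.3% of all genes, with the smallest adjusted p for Slc25a1 (0.00296), Slc25a24 (0.00459) and Slc25a33 (0.00649). Between neighbouring time points 26 of the member and time point pairs were called, against 8.54% of such pairs over all genes. They were 0 from 3 to 8 h, 5 from 8 to 24 h, 10 from 24 to 48 h and 11 from 48 to 72 h, against 0.825%, 6.28%, 10.5% and 16.6% of all genes.

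From 8 to 24 h Slc25a38 rose (2.46% of all genes did) and 4 members fell (3.82%). From 24 to 48 h 9 members rose (7.8%) and 1, Slc25a38, fell (2.65%). The ratios of Slc25a25 (2.22 ± 0.51), Slc25a24 (1.94 ± 0.23) and Slc25a1 (1.61 ± 0.15) rose furthest. Those of Slc25a4, Slc25a5, Slc25a12, Slc25a13, Slc25a20 and Slc25a39 rose by 1.21 to 1.53. For Slc25a25 the mean log2 level went from 11.71 to 9.81 in control livers and from 10.69 to 11.02 in treated livers. For Slc25a24 these were 7.65 to 7.30 and 7.34 to 8.93, and for Slc25a1 10.53 to 9.92 and 9.51 to 10.51. From 48 to 72 h 8 members fell (10% of all genes did), led by Slc25a24 (-1.60 ± 0.23), Slc25a12 (-1.52 ± 0.29) and Slc25a33 (-1.52 ± 0.30), and 3 rose, among them Slc25a17 and Slc25a38 (6.56%). With median centring 5 members passed the F test and 4 pairs were called, with the slide as a block 1 and 10, and without the 3 dim arrays 2 and 1. Leaving out 1 array at a time, the F test called 9 (without either 72 h array; 10 without replicate 1 of 3 h or replicate 2 of 8 h) to 18 members and 16 (without replicate 3 of 72 h) to 38 pairs.

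The control livers were not constant either. In the Cy3 level of the arrays, 5 of 41 members differed over time after the saline injection, against 3.68% of all genes. That level was scaled together with Cy5, so the Cy5 signal of an array can enter it. Slc25a39 fell from log2 levels of 9.40 and 9.33 at 3 h to 8.05 and 7.27 at 48 h, a difference of -1.71 ± 0.27 (adjusted p of its F test 0.0426). Its treated livers fell less, from a mean of 9.28 to 8.72, so that the treated mean at 48 h lay above the control mean but below both 3 h means. Slc25a20 fell in control livers from 9.59 to 8.48 (-1.12 ± 0.18), while its treated means were 9.11 at 3 h and 9.42 at 48 h. In both genes the control mean at 48 h thus lay below that at 3 h.

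Slc25a45 and Slc25a10 also fell in control livers from 3 to 48 h (by 0.96 ± 0.13 and 0.96 ± 0.15). Slc25a42 rose in control livers, from 10.74 at 3 h to 12.04 at 48 h (1.30 ± 0.20), and its treated livers went from 11.35 to 11.63. The count of 5 moved to 0 without between-array scaling, with a normexp offset of 0 and with the slide as a block, to 1 with quantile scaling of Cy3 alone or no background correction, to 2 with no filter and to 3 with an intensity trend. Leaving out 1 array gave 0 to 6, with 0 without replicate 3 of 3 h, replicate 1 of 24 h or either 72 h array, 1 without replicate 1 of 3 h or replicate 3 of 24 h, 2 without replicate 3 of 8 h and 3 without replicate 2 of 8 h or replicate 3 of 48 h.

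**Figure D4:**
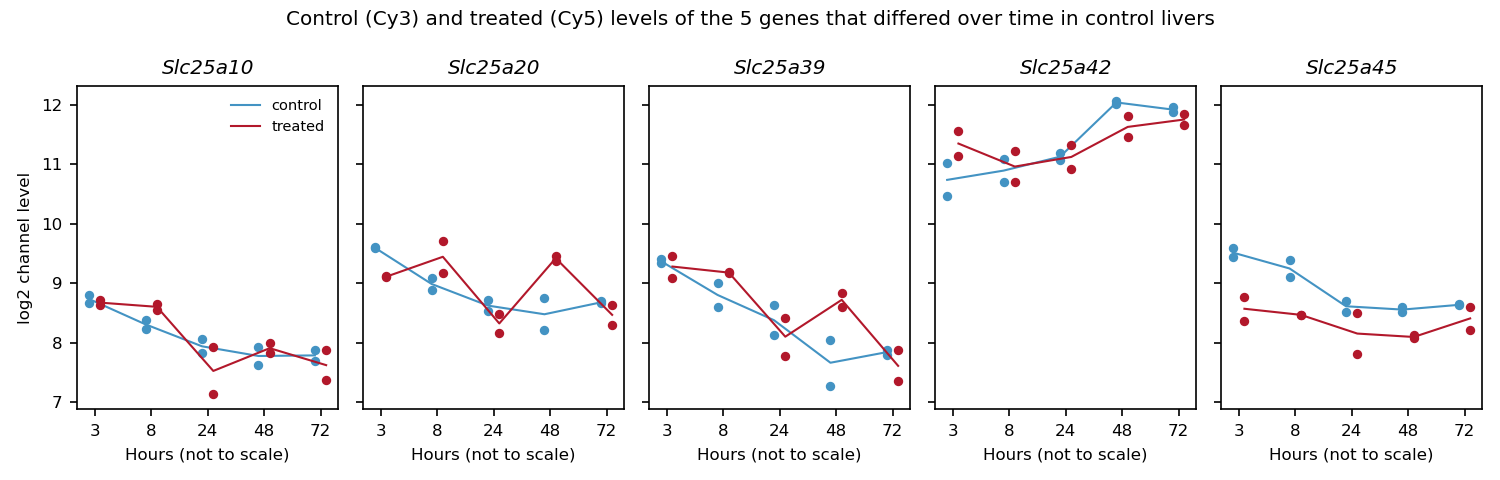
Log2 channel level of control (blue, Cy3) and treated (red, Cy5) livers against time (equal spacing, not to scale) for the 5 Slc25 genes that differed over time in control livers, with 1 point per array and a line through the means; levels are not compared between genes. The control line falls from 3 to 48 h in Slc25a10, Slc25a20, Slc25a39 and Slc25a45 and rises in Slc25a42.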

How the data were processed

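RNA of 10 arrays was measured on Agilent 2-colour arrays. Per the file headers, images were read with Feature Extraction 10.7.3.1, and the deposited scanner files give intensities of both channels on a linear scale and a log10 ratio of Cy5 over Cy3. The authors' deposited table holds a score that was 1.44 times that log10 ratio on every array (correlation 1) and was rescaled to log2 as an alternative. Its scale is unstated. Intensities were corrected with normexp (offset 50) and normalized by within-array loess with limma 3.58.1 (R 4.3.3). Control spots (1377) had weight 0 there, and 2718 outlier spots were left out. Spots of a probe were averaged, 29623 of 39429 probes were kept, and the brightest kept probe stood for a gene. Genes were tested with lmFit and eBayes on the 10 arrays together (1 coefficient for each time point), two-sided, with Benjamini-Hochberg adjustment. The Cy3 level was tested by itself after loess and Aquantile scaling, which acts on the mean of both channels, so Cy5 signal enters the scaling. The steps were tested on simulated data.

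Coordinates of probes were taken from the files (mm9); exon and UTR positions were not analysed here. No genome build for the upstream processing beyond this is given in the sources used here. Members, substrate groups and pathway lists were chosen with earlier results of these data known. Every member could be named; array values were given for called members, the largest changes and fixed paralog pairs, and at most 3 called genes of a pathway list. For markers, 9 lists were used. Values of 1 member and 1 pathway gene are not reported here, though both enter the counts. The number of arrays limits the precision. Alternatives covered background correction, normalization, scaling, the filter on dim probes, the probe rule, the variance model, blocks and left-out arrays.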

Additional observations from a re-analysis of the deposited data

Results flagged for a closer look

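The log2 ratio of treated over control differed between neighbouring time points in 5 members from 8 to 24 h, in 10 from 24 to 48 h and in 11 from 48 to 72 h, by limma contrasts with Benjamini-Hochberg adjustment over all genes. Slc25a1 was called lower at 24 h and higher at 48 h, a difference of 1.61 between these times (adjusted p = 0.00291).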

How the results depend on the processing

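Counts of called members, 5, 5, 4, 17 and 0 at 3, 8, 24, 48 and 72 h, are those an alternative is set against. No background correction gave 11 at 8 h, 15 at 24 h, 46 neighbouring pairs and 1 in control livers. The software's own ratio and the authors' deposited table gave 2 at 3 h and 13 at 24 h, and the stricter filter gave 7 at 24 h. Median centring gave 14, 3, 2 and 7 at 3, 8, 24 and 48 h, 5 in the F test and 4 pairs, and turned Slc25a28 (-0.27), Slc25a42 (-0.52) and Slc25a46 (-0.39) at 3 h and Slc25a42 at 48 h (0.23). The slide as a block gave 1 at 3 h, 9 at 48 h, 1 in the F test, 10 pairs and 0 in control livers. Without the 3 dim arrays, chosen after seeing the data, the counts were 0, 2 and 1 at 3, 8 and 24 h, 2 in the F test and 1 pair. The control liver count was 0 with a normexp offset of 0 or no scaling between arrays, 1 with quantile scaling of Cy3 alone, 2 with no filter and 3 with an intensity trend. Leaving out 1 array gave 0 to 8, 1 to 11, 3 to 8, 9 to 18 and 0 to 0 members at the 5 times, 9 to 18 in the F test, 16 to 38 pairs and 0 to 6 in control livers. The cause of these changes was not tested, and the shares of all genes called under these alternatives are not given here.

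Pairing by replicate number was not taken up, since not every correlation exceeded 0.1: over the 6 pairs of time points with the same numbers they ran from -0.04 to 0.29, 4 of them over 0.1. The 4 pairs with 8 h, whose arrays are replicates 2 and 3, gave -0.12 to -0.07. With the replicate block, which is also the scan day, all 31 calls held, with counts of 5, 6, 6, 18 and 0, 15 in the F test, 26 pairs and 5 in control livers. Aquantile scaling and the intensity trend ended none of the 31 calls. Dim Cy5 signal limits 3, 24 and 72 h, where 1 of 2 arrays was dim.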
